A study of Mus musculus with 3 samples.

Results

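The class II genes of the mouse major histocompatibility complex (MHC) were followed through the cell classes of the liver by single-cell RNA sequencing. The 10 genes were taken by their symbol from the 55357 genes listed in the count matrices, and all 10 were found. They were the chain genes H2-Aa, H2-Ab1 and H2-Eb1, the invariant chain gene Cd74, the peptide-loading genes H2-DMa, H2-DMb1, H2-DMb2, H2-Oa and H2-Ob, and the regulator Ciita. There were 3 libraries, 1 per condition, and each held the pooled cells of 2 wild-type male C57BL/6 mice, which were 8 weeks old when the study began. Control mice were left untreated. High-fat diet mice, a model of fatty liver inflammation, ate a diet with 60% of its calories from fat for 4 months. CCl4 mice, a model of liver fibrosis, ate chow for 3 months and then received 0.1 mL of 10% carbon tetrachloride (CCl4), a liver toxin, into the peritoneum 2 times per week over 4 weeks. Hepatocytes and nonparenchymal cells were isolated by collagenase perfusion and combined in equal numbers. Since a condition was 1 library and the 2 mice in it could not be separated, no test across samples was possible, no p-value is given, and a difference between conditions cannot be told apart from one between mice or between library preparations.

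Class II molecules show peptides from proteins that a cell has taken up to CD4 T cells. Their alpha and beta chains (encoded by H2-Aa with H2-Ab1, and in other mouse strains H2-Ea with H2-Eb1) pair in the endoplasmic reticulum on the invariant chain CD74, which blocks the peptide groove and is later cut up by cathepsins. H2-DM, a dimer of H2-DMa with either H2-DMb1 or H2-DMb2, then exchanges the last fragment of CD74 for a peptide, while H2-DO, the dimer of H2-Oa and H2-Ob, restrains H2-DM, chiefly in B cells. CIITA, the product of Ciita, does not bind DNA itself but is recruited to class II promoters by a complex of RFX, CREB and NF-Y proteins. In the liver, Kupffer cells (the resident macrophages), dendritic cells and B cells are the known presenting cells, and sinusoidal endothelial cells and cholangiocytes (the epithelium of the bile ducts) can gain class II under inflammation.

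Of the 10 genes, 8 lay within 224.3 kb of chromosome 17 (chr17:34092340-34316674, GRCm38, GENCODE M21), in the order H2-Oa, H2-DMa, H2-DMb2, H2-DMb1, H2-Ob, H2-Ab1, H2-Aa and H2-Eb1. H2-Aa was on the minus strand and the other 7 were on the plus strand. Ciita lay on another chromosome, at chr16:10480059-10528418 on the plus strand. RefSeq promoters on GRCm38.p6, from 250 bases before to 50 bases after the start, held 8 entries for 7 of the genes, with H2-DMa present with 2 starts. H2-Ab1, Ciita and Cd74 had no entry. The promoters were searched on both strands for the letters AACNNATGA, a core shared by known X boxes where RFX binds, and TGATTGG, a form of the Y box where NF-Y binds. These letters were chosen after the sequences had been looked at. The first was in 2.85% and the second in 7.82% of all 32851 promoters, and an X core followed by a Y box within 60 bases was in 0.0396%, that is 13 promoters, of which 4 were promoters of H2-DMb1, H2-DMb2, H2-Eb1 and H2-Ob. The 6 windows of 65 bases that hold the Y box are shown, since 4 of them display this layout and those of H2-Aa and H2-Oa show only its second part, read along each gene's own strand with the matched letters in capitals.
H2-Aa, minus strand, chr17:34287859-34287923: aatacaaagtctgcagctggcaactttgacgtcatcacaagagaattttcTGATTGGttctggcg
H2-DMb1, plus strand, chr17:34153078-34153142: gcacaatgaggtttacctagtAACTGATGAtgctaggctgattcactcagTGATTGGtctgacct
H2-DMb2, plus strand, chr17:34145107-34145171: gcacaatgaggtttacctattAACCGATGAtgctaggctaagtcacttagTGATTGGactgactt
H2-Eb1, plus strand, chr17:34305756-34305820: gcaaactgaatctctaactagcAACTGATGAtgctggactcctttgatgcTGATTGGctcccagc
H2-Oa, plus strand, chr17:34092284-34092348: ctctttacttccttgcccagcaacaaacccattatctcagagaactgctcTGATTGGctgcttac
H2-Ob, plus strand, chr17:34238796-34238860: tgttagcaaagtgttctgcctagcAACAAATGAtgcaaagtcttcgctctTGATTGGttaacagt

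In the 4 promoters with both matches, 17 to 20 bases separated the X core from the Y box, and the Y box began 59 to 92 bases before the start. In H2-Aa and H2-Oa only the Y box letters were matched, 50 and 45 bases before the start. Neither H2-DMa promoter held these letters. H2-DMb1 and H2-DMb2 are near copies of each other, with 94.1% identity over their aligned longest coding transcripts and 38.7% of 25-base words shared, so the split of reads between them is uncertain. H2-DMa overlaps 1 gene on its own strand and 3 on the opposite one, Brd2 among these genes, and Cd74 overlaps Mir5107 on its own strand. H2-Eb1, H2-Oa and Ciita overlap a gene on the opposite strand only (Gm20513, BC051537 and Dexi). Reads of genes that overlap on the same strand may be divided between them.

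The libraries held 11245 barcodes (control), 12984 (high-fat diet) and 12761 (CCl4), with medians of 2939, 2336 and 2173 UMIs (unique molecular identifiers, 1 per captured transcript). Sets of 3 values follow this order of libraries. Hepatocytes were the largest class, with 4305, 6208 and 7022 cells. After filtering, 36945 of 36990 barcodes were kept. Between 36 and 52 barcode sequences were shared by any pair of libraries and 0 by all 3. The cells were clustered without class II genes, and 45 of 58 clusters were named as cell classes from marker genes. Some classes joined clusters made almost wholly of 1 library. B cell clusters were 11 (936 of 938 control), 42 (740 of 748 high-fat diet) and 55 (911 of 912 CCl4 cells). Most T cells, and most control plasmacytoid dendritic cells and classical monocytes, also lay in clusters of their own library. Ratios between libraries in these classes compare different clusters under 1 name. Class II levels were taken as UMIs summed over the cells of a class and given per 1000000 UMIs of that class (CPM), with exact 95% Poisson intervals. Ratios carry exact conditional intervals and shares carry exact binomial (Clopper-Pearson) ones, and what these cover is counting error alone. Each transcript is counted once at its 3′ end, so CPM need no correction for gene length, although capture can differ between genes. The class II sum below is the total of Cd74, H2-Aa, H2-Ab1 and H2-Eb1, the 4 most abundant members. RNA from hepatocytes was present in every other class and was higher in both treated libraries. The summed CPM of 10 hepatocyte markers in B cells was 44.6% of the level in hepatocytes in the control library, 77.9% on high-fat diet and 89.1% with CCl4. In T cells these shares were 30.3%, 66.7% and 78.2%.

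Class II RNA was highest in Kupffer cells and conventional dendritic cells, and lower in B cells and then plasmacytoid dendritic cells. It was low in classical monocytes, endothelial cells and cholangiocytes, and near background in T cells. Nonclassical monocytes were near plasmacytoid dendritic cells in the control, from 23 cells, and below classical monocytes on high-fat diet. Kupffer cells had a class II sum of 21745 CPM in the control library (interval 21266 to 22232), 16264 CPM on high-fat diet and 11232 CPM with CCl4. Conventional dendritic cells had 19569, 15332 and 11773 CPM. B cells had 10814, 5048 and 3712 CPM. The same 3 classes led in every library. Neighbours in the order differed by more than counting error in all libraries, except that Kupffer cells and conventional dendritic cells did not separate with CCl4 (ratio interval 0.975 to 1.13). The spread between cells is not in these intervals. By the median cell, conventional dendritic cells were above Kupffer cells, with 89.5, 48.5 and 31 class II UMIs against 77.5, 36 and 29. Plasmacytoid dendritic cells, which make type I interferon, followed with 4887, 3097 and 2710 CPM. Nonclassical monocytes, the patrolling type, had 4232 and 731.8 CPM in 23 control and 709 high-fat diet cells, and 2061 CPM in only 16 CCl4 cells. Classical monocytes, the precursors of inflammatory macrophages, had 1337, 996.6 and 1691 CPM.

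Endothelial cells, cholangiocytes and T cells came next. Endothelial cells had 762.7, 636.4 and 322.5 CPM, and cholangiocytes had 487.1, 527.2 and 228.5 CPM. T cells, taken as background because mouse T cells are not known to make class II, had 71.4, 103.2 and 83.1 CPM. Hepatocytes were lower still at 25.7, 37.6 and 26.1 CPM. Set against T cells of the same library, the class II sum of control cells was 304.4-fold in Kupffer cells, 273.9-fold in conventional dendritic cells, 151.4-fold in B cells and 68.4-fold in plasmacytoid dendritic cells. It was 18.7-fold in classical monocytes, 10.7-fold in endothelial cells and 6.82-fold in cholangiocytes. All of these ratios depended on the processing. Under the alternative filters, clusterings and scalings listed below, classical monocytes ranged from 3.35-fold to 29.0-fold. Endothelial cells ranged from 1.90-fold to 18-fold and cholangiocytes from 1.26-fold to 16.3-fold, while plasmacytoid dendritic cells ranged from 18.8-fold to 115.8-fold. Kupffer cells ranged from 86.1-fold to 536.4-fold and B cells from 49.6-fold to 209.4-fold. Conventional dendritic cells ranged from 107.7-fold to 477.2-fold over the 7 alternatives that gave a value, so the ranges of these 3 classes overlapped.

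**Figure D1:**
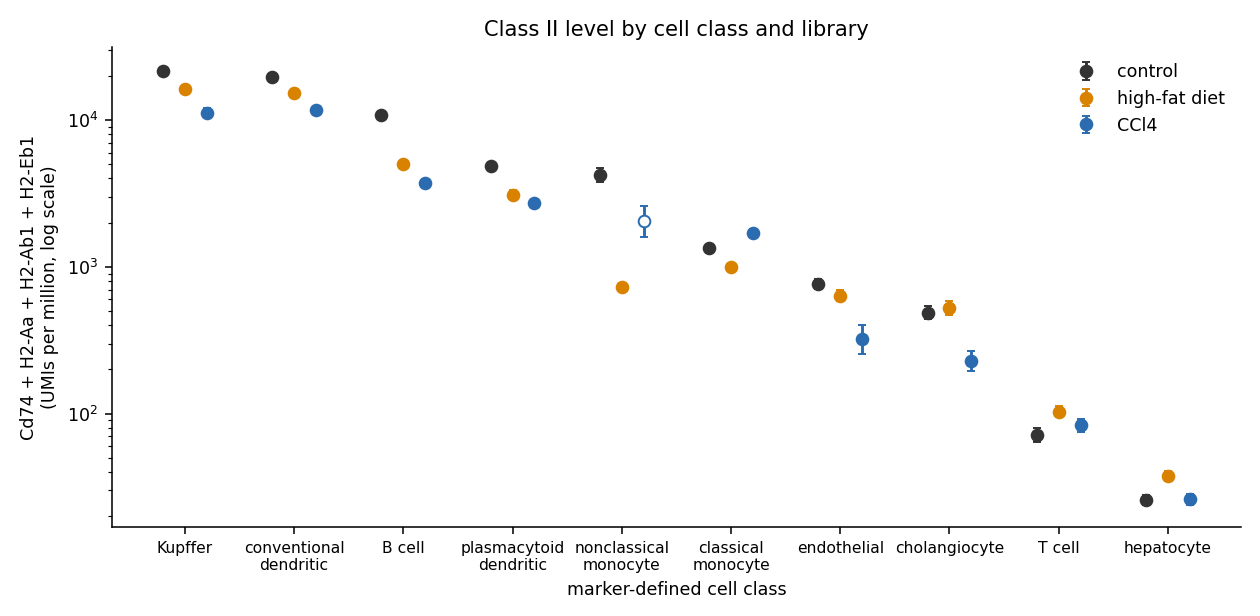
Class II sum (Cd74, H2-Aa, H2-Ab1 and H2-Eb1) in CPM on a log axis for 10 marker-defined cell classes in the control, high-fat diet and then CCl4 libraries, with exact Poisson 95% intervals and an open point for the class with only 16 cells. Levels run from 21745 CPM in control Kupffer cells to 25.7 CPM in control hepatocytes, and classical monocytes are the class in which the CCl4 point is the highest of the 3.

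A member was counted against T cells of the control library at a mean of at least 20 CPM over the class and T cells, and nearly all members were too low in T cells to reach that mean except through the class compared. The counts are therefore set by this minimum and only say which members were measurable. At least 2-fold above T cells (ratio of CPM + 5) were 10 of 10 members in B cells, where 4.79% of all genes tested passed, and 10 of 10 in conventional dendritic cells, where 10.3% passed. In plasmacytoid dendritic cells 7 of 7 members tested passed (all genes 11.2%) and in Kupffer cells 7 of 7 (14.5%). The count was 6 of 6 in classical monocytes (13.3%) and 6 of 6 in nonclassical monocytes (16.1%), and 4 of 4 in endothelial cells (20.6%) and 4 of 4 in cholangiocytes (18.7%).

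**Figure D2:**
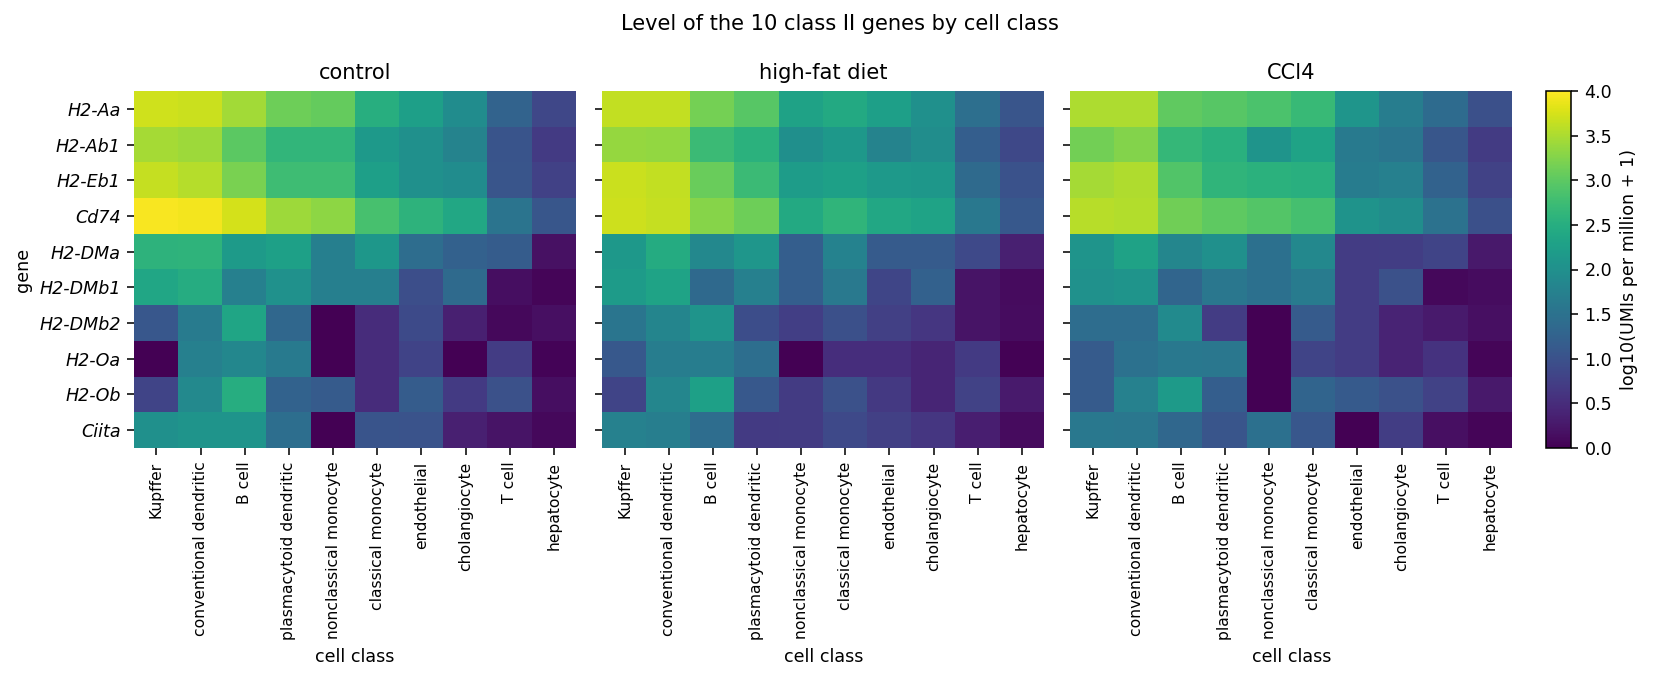
Heat maps of the 10 members (rows) in 10 cell classes (columns) for each library, as log10(CPM + 1). H2-DMb2, H2-Oa and H2-Ob are brightest in B cells or dendritic cells, while the chain genes, Cd74 and H2-DMa extend into monocytes.

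The chain genes H2-Aa, H2-Ab1 and H2-Eb1 were high and low in the same classes. H2-Aa had 5145, 4304 and 3239 CPM in Kupffer cells, 4708, 4313 and 3240 CPM in conventional dendritic cells, and 2745, 1445 and 1067 CPM in B cells. H2-Ab1 was lower than its partner in each of these, with 2902, 2318 and 1412 CPM in Kupffer cells and 974.2, 528.2 and 465.1 CPM in B cells. The ratio of H2-Aa to H2-Ab1 UMIs was not the same in all classes. It was 2.82 in control B cells and 3.09 in control plasmacytoid dendritic cells, against 1.81 in conventional dendritic cells, 1.77 in Kupffer cells and 1.40 in cholangiocytes, the last with an interval of 0.949 to 2.07. In the high-fat diet library the same ratio was 2.74 in B cells, 2.54 in plasmacytoid dendritic cells, 1.90 in conventional dendritic cells and 1.86 in Kupffer cells. With CCl4 it was 2.29 in both B cells (2.12 to 2.49) and Kupffer cells (1.82 to 2.90), 2.67 in plasmacytoid and 1.80 in conventional dendritic cells, so B cells and Kupffer cells no longer separated. H2-Eb1 had 3643, 4355 and 3294 CPM in conventional dendritic cells, so its level was highest on high-fat diet, unlike that of H2-Aa. H2-Ea, the alpha chain partner of H2-Eb1 whose promoter is known to be deleted in C57BL/6 mice, had at most 1 UMI in control B cells and in control conventional dendritic cells.

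Cd74, the invariant chain, was the most abundant member in the presenting cells of the control library and took a smaller part of the class II sum in both treated libraries. It had 9227, 4944 and 3653 CPM in Kupffer cells, 8614, 4392 and 3440 CPM in conventional dendritic cells, and 5552, 1844 and 1373 CPM in B cells. Within the class II sum, where the scaling of a library cancels out, the share of Cd74 in B cells was 51.3% (50.7 to 52.0) in control cells, 36.5% (35.5 to 37.6) on high-fat diet and 37.0% (35.9 to 38.1) with CCl4. The share of H2-Eb1 in B cells was 14.3%, 24.4% and 21.7% in the same order. The Cd74 share was lower in both treated libraries in each of the 10 classes plotted. In conventional dendritic cells it was 44.0%, 28.7% and 29.2%, in Kupffer cells 42.4%, 30.4% and 32.5%, and in cholangiocytes 52.0%, 39.1% and 39.4%. T cells (46.6%, 37.2% and 37.6%) and hepatocytes (42.1%, 31.2% and 32.7%), where class II is at background, moved the same way, and their part in the shift of the other classes was not tested. The intervals overlapped those of the control in T cells of both treated libraries and, with CCl4, in endothelial cells, cholangiocytes and nonclassical monocytes, and nowhere else among these classes.

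**Figure D3:**
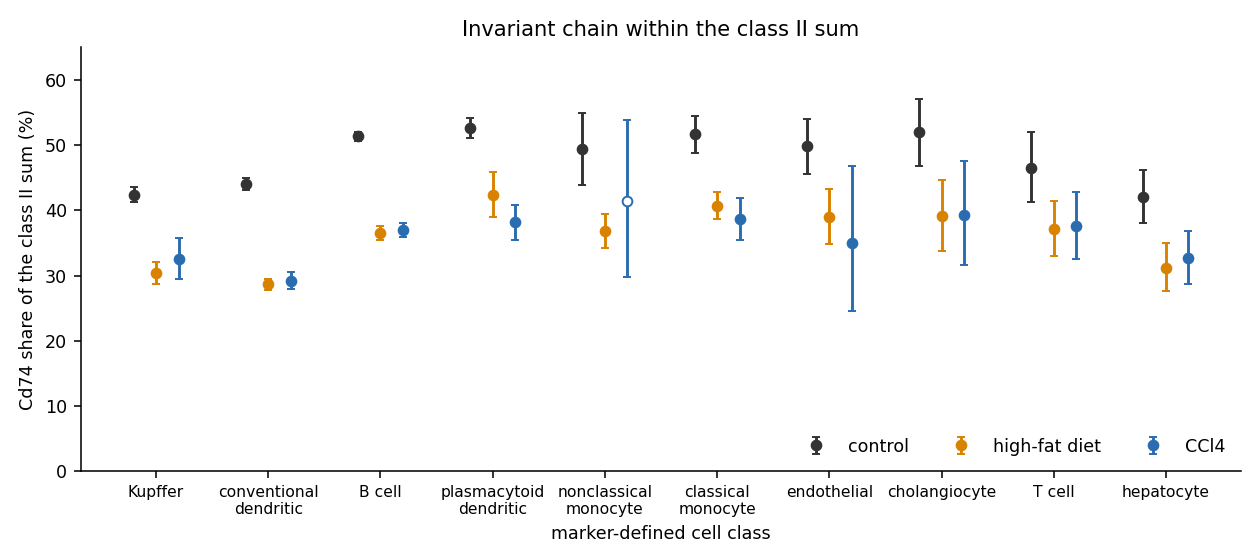
Share of Cd74 in the class II sum, in percent from 0, for 10 cell classes in the 3 libraries, with exact 95% binomial intervals and an open point for the class with 16 cells. The control point is the highest in every class, at 42.1% to 52.7%, and all treated points lie between 28.7% and 42.4%.

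The loading genes separated the presenting classes. H2-DMa, the alpha chain of H2-DM, had 392.6, 292.2 and 199.9 CPM in conventional dendritic cells, 383.2, 137 and 116.6 CPM in Kupffer cells, and 149.6, 72.0 and 66.4 CPM in B cells. Its beta chain came mainly from H2-DMb2 in B cells, with 223.2, 114.8 and 81.5 CPM against 53.8, 22.3 and 18.8 CPM for H2-DMb1. Conventional dendritic cells used the other copy, with 301.6, 210.2 and 116.2 CPM of H2-DMb1 and 45.5, 64.1 and 25.6 CPM of H2-DMb2. H2-DMb2 thus made up 80.6%, 83.8% and 81.3% of beta chain UMIs in B cells and 13.1%, 23.4% and 18.0% in conventional dendritic cells. In plasmacytoid dendritic cells these shares were 16.5%, 12.5% and 10.0%. In Kupffer cells H2-DMb2 was counted with only 4, 6 and 2 UMIs, shares of 4.60% (1.27 to 11.4), 18.2% (6.98 to 35.5) and 20% (2.52 to 55.6).

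Of the chains of H2-DO, H2-Ob was highest in B cells in every library, while H2-Oa did not separate by more than counting error between B cells and conventional dendritic cells in the control or on high-fat diet, nor between B cells and plasmacytoid dendritic cells with CCl4. H2-Ob had 306.8, 185.6 and 148.4 CPM in B cells, 75.8, 67.1 and 55.8 CPM in conventional dendritic cells and 17.2, 11.6 and 14.5 CPM in plasmacytoid dendritic cells. H2-Oa had 70.0, 48.0 and 38.7 CPM in B cells, 53.9, 49.2 and 30.2 CPM in conventional dendritic cells, and 42.9, 27.0 and 37.4 CPM in plasmacytoid dendritic cells. For every 100 UMIs of H2-DM there were 88.4, 111.8 and 112.2 UMIs of H2-DO in B cells, against 17.5, 20.5 and 25.2 in conventional dendritic cells. Kupffer cells had 0, 2 and 1 UMIs of H2-Oa and 2, 1 and 1 UMIs of H2-Ob, so H2-DO was not detectable above background there at this depth.

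Ciita, the regulator, had 115.2, 25.8 and 20.9 CPM in B cells, 118, 50.7 and 37.2 CPM in conventional dendritic cells, and 99.96, 57.1 and 38.9 CPM in Kupffer cells. The control library was the highest of the 3 in each of these classes. Plasmacytoid dendritic cells had 26.9, 3.86 and 10.4 CPM, and classical monocytes 9.92, 6.50 and 11.1 CPM. In cholangiocytes there were 1, 2 and 3 UMIs of Ciita, and in endothelial cells 7, 4 and 0, too few for a comparison between libraries. T cells had 3, 6 and 2 UMIs, or 0.612, 1.19 and 0.469 CPM.

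B cells had a lower class II level as CPM in both treated libraries, but not relative to other B cell genes. The class II sum was 0.467 times the control level on high-fat diet (0.455 to 0.479) and 0.343 times with CCl4 (0.334 to 0.353), and the median cell held 25, 11 and 7 class II UMIs. At least 2-fold lower on high-fat diet were 4 of 10 members (Cd74, H2-DMa, H2-DMb1 and Ciita), with 16.5% of all genes tested as background. With CCl4 these were 8 of 10 members, all but H2-Eb1 and H2-Oa, with 25.3% as background. The median member ratio was 0.526 and 0.433, against 0.863 and 0.758 over all genes tested. Over the same libraries 10 B cell markers, none of them class II genes, summed to 0.436 and 0.359 times the control, and class II UMIs per marker UMI were 2.53, 2.71 and 2.42.

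Scaled instead to the UMIs of 3578 genes that are low in hepatocytes, the B cell ratios turned to 1.08 (1.06 to 1.11) on high-fat diet and 1.09 with CCl4, and 0 of 10 members were at least 2-fold lower in either library (backgrounds 3.98% and 3.89% of all genes). These reference genes held 7.84%, 3.38% and 2.48% of B cell UMIs. Their own median ratios were 1.09 and 1.04 under this scaling, while the medians over all genes tested moved to 1.91 and 2.26. The genes tested numbered 13127 and 13235 under this scaling, against 5742 and 5549 as CPM. Under this scaling Cd74 was still below the control at 0.771 and 0.783 times, Ciita stood at 0.519 and 0.575 times, and H2-Eb1 at 1.85 and 1.66 times. The lower CPM went with more hepatocyte RNA, whose part was not tested, and the ratio of one member to another within a class is the same under either scaling. Nearly every B cell still held class II RNA, since 99.7%, 99.3% and 97.9% of 936, 742 and 920 B cells had at least 1 UMI of the sum, against 7.995%, 9.32% and 4.52% of T cells at similar depth (medians of 1907 to 2099 UMIs in B cells and 2019 to 2371 in T cells). Ciita was seen in 22.4% of control B cells, 5.53% on high-fat diet and 4.02% with CCl4, or in 12.2%, 2.70% and 2.00% after thinning to 1000 UMIs per cell.

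**Figure D4:**
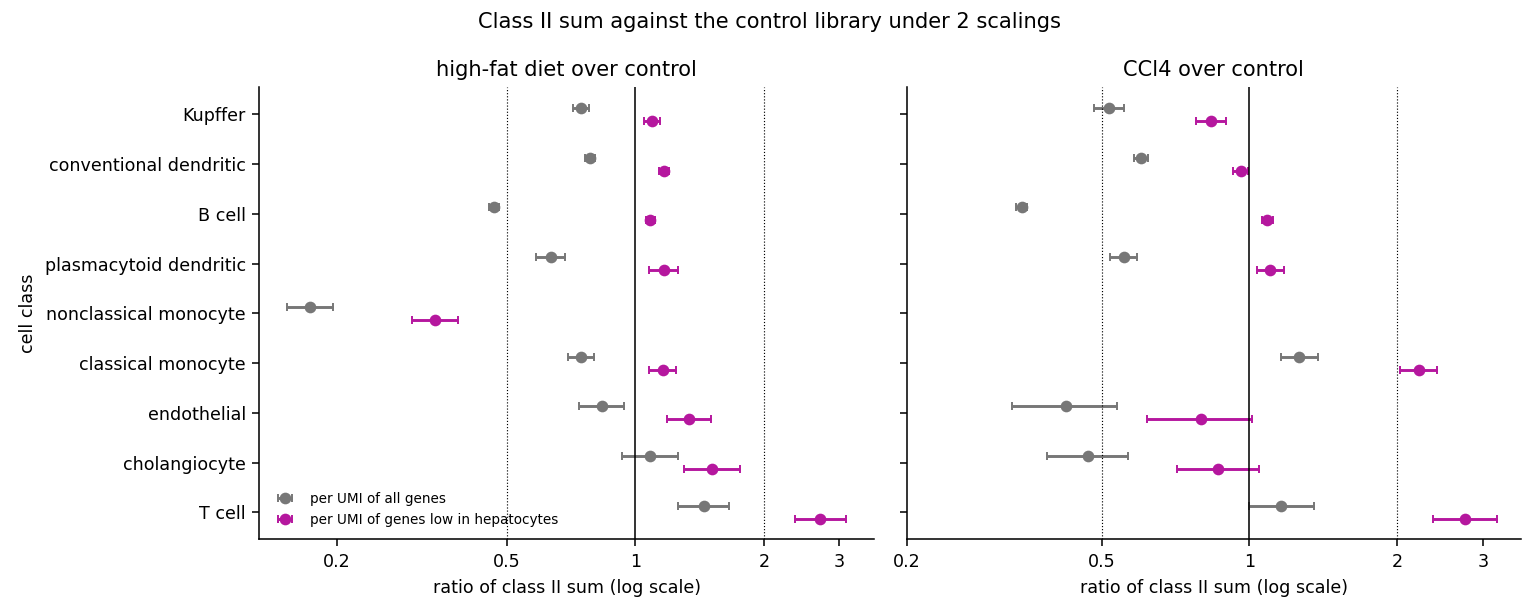
Ratio of the class II sum to the control library (log axis) for 9 cell classes, per UMI of all genes (grey) and per UMI of genes low in hepatocytes (magenta), with exact conditional 95% intervals. Dotted lines mark 2-fold, and the B cell points move from 0.467 to 1.08 on high-fat diet and from 0.343 to 1.09 with CCl4.

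In conventional dendritic cells the class II level as CPM was nearer to the control than in B cells, which did not hold on high-fat diet after scaling to genes low in hepatocytes. The sum was 0.784 times the control on high-fat diet and 0.602 times with CCl4, and 1.17 and 0.960 times when scaled to genes low in hepatocytes. At least 2-fold lower were 1 of 10 members on high-fat diet (Ciita, background 11.7%) and 3 of 10 with CCl4 (Cd74, H2-DMb1 and Ciita, background 16.4%), and after the scaling 0 of 10 were in either library (backgrounds 9.42% and 10.5%). The scaling gave 1 of 10 higher on high-fat diet (H2-DMb2, 43 UMIs against 27, background 25.4%). H2-Eb1 was 1.20 times the control on high-fat diet (1.13 to 1.26), whereas Cd74 was 0.510 times (0.487 to 0.534). Split by subset markers, control cells with cDC2 markers had 25434 CPM, those with migratory markers 23209 CPM and those with cDC1 markers 20646 CPM. Cells with none of these markers had 11452 CPM. On high-fat diet the same 4 groups had 17721, 18559, 20221 and 11107 CPM, and with CCl4 13905, 16055, 10340 and 10039 CPM. The groups were small, from 9 to 90 cells, and 30 of 499 cells held markers of more than 1 subset.

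Plasmacytoid dendritic cells had class II sums of 0.634 and 0.555 times the control level on high-fat diet and with CCl4, or 1.17 and 1.10 times when scaled to genes low in hepatocytes. On high-fat diet 0 of 7 members tested were at least 2-fold lower, with 15.8% of all genes as background, and with CCl4 2 of 7 were (Cd74 and H2-DMb1, background 22.3%). After the scaling 1 of 10 was lower on high-fat diet (Ciita, background 9.72%) and 1 of 10 with CCl4 (H2-DMb2, background 8.30%). These calls rested on 1 UMI of Ciita against 22 in the control and on 2 UMIs of H2-DMb2 against 17. Their intervals were 0.00638 to 1.63 and 0.0445 to 1.67. Cd74 had 2573, 1313 and 1034 CPM in these cells, and H2-Aa 1313, 903.7 and 920 CPM. Their hepatocyte marker level was 21.7%, 57.0% and 68.8% of that in hepatocytes. Among cells with at least 2000 UMIs the ratios of the sum were 0.277 and 0.256.

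Kupffer cells, with 72, 61 and 27 cells, had class II sums of 0.748 and 0.517 times the control, and 1.09 and 0.835 times after scaling to genes low in hepatocytes. On high-fat diet 1 of 8 members was at least 2-fold lower (H2-DMa, background 13.6%) and 1 of 8 at least 2-fold higher (H2-DMb2, background 11.9%), the latter from 6 UMIs against 4 and with a ratio interval of 0.731 to 14.9. After the scaling 0 of 10 were lower there (background 12.5%). Higher were 2 of 10 (H2-DMb2 and H2-Oa, background 34.4%), H2-Oa from 2 UMIs against 0. With CCl4 5 of 7 members were at least 2-fold lower (H2-Ab1, Cd74, H2-DMa, H2-DMb1 and Ciita), with 19.1% of all genes as background. Of these calls only that of H2-DMa held after the scaling, which gave 1 of 10 lower (background 22.6%) and 3 of 10 higher (H2-DMb2, H2-Oa and H2-Ob, background 36.9%), the last 3 from at most 2 UMIs each with CCl4. H2-DMa was 0.358 times the control on high-fat diet (0.222 to 0.554) and 0.304 times with CCl4 (0.136 to 0.595). Ciita was 0.389 times with CCl4, but from 3 UMIs (interval 0.0766 to 1.23). The Kupffer cell markers themselves were 0.845 and 0.467 times the control. With a mitochondrial limit of 10% the Kupffer ratios were 0.206 and 0.342.

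In classical monocytes the class II sum was higher with CCl4 than in the control. It was also higher in T cells (1.16 times, 1.00 to 1.35), in natural killer cells (61.4 against 180.5 CPM), in erythroid cells (24.4 against 371.8 CPM) and in fibroblast or stellate cells (251.6 against 1634 CPM, from only 15 CCl4 cells). In the monocytes the chains were higher with CCl4, with H2-Aa at 318.5, 271.8 and 501 CPM, H2-Ab1 at 145.5, 134.3 and 208.9 CPM and H2-Eb1 at 181.9, 184.4 and 327.2 CPM. Cd74 was not higher as CPM, with 691, 406.1 and 654.4 CPM, and neither was H2-DMa, with 132.3, 59 and 74.0 CPM. This was not particular to the monocytes. T cells had 17.8, 27.5 and 24.4 CPM of H2-Aa, 10.0, 14.5 and 10.6 CPM of H2-Ab1, 10.4, 22.9 and 16.9 CPM of H2-Eb1, and 33.3, 38.4 and 31.2 CPM of Cd74. With CCl4 the monocyte sum was 1.27 times the control (1.16 to 1.38), H2-Aa was 1.57 times (1.33 to 1.86) and H2-Eb1 was 1.80 times (1.45 to 2.24). Scaled to genes low in hepatocytes, the sum was 2.22 times (2.03 to 2.42), H2-Eb1 3.16 times, Cd74 1.66 times (1.45 to 1.90) and H2-DMa 0.981 times (0.668 to 1.41), and 6 of 10 members were at least 2-fold higher (H2-Aa, H2-Ab1, H2-Eb1, H2-DMb2, H2-Oa and H2-Ob), with 31.5% of all genes as background. The last 3 of these had at most 10 UMIs in the CCl4 cells. T cells, the background class, had a higher ratio under the same scaling, 2.75 for the sum and 3.84 for H2-Eb1, so the scaled ratio is not particular to the monocytes. Counted per cell without any scaling, the sum was 0.737 times the control, at median depths of 3985 UMIs in control cells and 2448 UMIs with CCl4. As CPM, 0 of 6 members were at least 2-fold lower with CCl4, with 12.3% of all genes as background. On high-fat diet the sum was 0.745 times the control and 1 of 6 members was at least 2-fold lower (H2-DMa, background 5.40%). Scaled to genes low in hepatocytes, 2 of 9 were at least 2-fold higher there (H2-DMb2 and H2-Ob, background 25.2%). These calls rested on 18 and 19 UMIs against 2 each in the control.

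Class II RNA was concentrated in a minority of classical monocytes. The 10% of cells with the most class II held 86.7%, 75.6% and 65.9% of the class II UMIs, and 34.0%, 36.5% and 43.1% of cells had at least 1 UMI. After thinning to 1000 UMIs these shares were 20.8%, 25.04% and 34.5%, against 3.48%, 4.85% and 2.72% of T cells. Conventional dendritic markers were at 21.6%, 27.6% and 31.8% of their level in that class, with Zbtb46 and Clec9a at 0 in all 3 libraries, and 7, 10 and 9 of 13 markers seen. B cell markers were at 2.14%, 3.31% and 6.63% of the B cell level. Among cells with no UMI of any of 26 markers of B cells, Kupffer cells and dendritic cells, the class II sum was still 847.4, 677.8 and 1153 CPM, from 99, 460 and 167 cells, and the ratio of CCl4 to control was 1.36.

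Nonclassical monocytes had the lowest ratio on high-fat diet, 0.173 times the control and 0.339 times when scaled to genes low in hepatocytes. As CPM, 6 of 6 members tested were at least 2-fold lower, with 18.7% of all genes as background. After the scaling 3 of 9 were lower (H2-Aa, H2-Ab1 and Cd74, background 8.13%) and 2 of 9 higher (H2-DMb2 and Ciita, background 50.9%), with H2-Eb1 at 0.566 times. The 2 higher calls rested on 8 and 7 UMIs on high-fat diet against 0 in the control, and both intervals held 1. H2-Aa had 1148 CPM in the control and 202.7 CPM on high-fat diet, and Cd74 2090 and 269.4 CPM. The control value came from 23 cells, in which 14 cells held all 328 class II UMIs and the 2 richest cells held 47.9% of them. Of these 23 cells, 16 held no UMI of the 26 markers, and these had 5402 CPM.

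Endothelial class II RNA came largely from cells that also held markers of other classes. The sum was 0.834 and 0.423 times the control on high-fat diet and with CCl4, and 1.34 and 0.797 times scaled to genes low in hepatocytes. At least 2-fold lower were 0 of 4 members on high-fat diet (background 8.64%) and 3 of 4 with CCl4 (H2-Ab1, H2-Eb1 and Cd74, background 17.5%). After the scaling none of these 3 was, and 2 of 10 members were lower with CCl4 (H2-DMa and Ciita, background 10.1%). These 2 calls rested on 1 and 0 UMIs with CCl4 against 19 and 7 in the control, and both intervals held 1. On high-fat diet the scaling gave 1 of 10 lower (H2-Ob, 3 UMIs against 10, background 5.93%). It also gave 1 of 10 higher (H2-Eb1, background 26.3%). Only 26.0%, 20.2% and 14.3% of cells held a class II UMI, and the richest 10% held 92.5%, 92.3% and 89.6% of the UMIs. In the cells without a UMI of the 26 markers, 107 of 154, 213 of 277 and 70 of 84, the class II sum dropped from 762.7 to 57.1 CPM, from 636.4 to 221.5 CPM and from 322.5 to 51.8 CPM. In these cells the high-fat diet ratio turned to 3.88 and the CCl4 ratio was 0.907. T cells treated the same way had 44.0, 44.8 and 26.2 CPM. Kupffer markers in endothelial cells were at 1.73%, 3.96% and 1.20% of the Kupffer level, and B cell markers at 3.78%, 2.31% and 4.92% of the B cell level. Of 13 conventional dendritic markers 10, 11 and 6 were seen. This count did not set endothelial cells apart, as it was 11, 11 and 9 in T cells and 12, 10 and 11 in hepatocytes.

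In the control and on high-fat diet, most class II RNA of cholangiocytes lay in cells without such markers, while with CCl4 103 of 155 UMIs lay in the 25 cells that held them. The sum was 487.1 CPM in the control (439.5 to 538.6), 527.2 CPM on high-fat diet (471.2 to 588.1) and 228.5 CPM with CCl4 (193.9 to 267.4), from 115, 165 and 214 cells. In the control and on high-fat diet, 64.4% and 56.4% of cholangiocytes had at least 1 class II UMI and the median cell had 1. With CCl4 the share was 22.9% and the median 0. The richest 10% of cells held 60.1%, 45.96% and 79.35% of the UMIs. In the control, 148 of 381 UMIs lay in the 14 cells that held such markers. Depth was higher than in T cells (medians of 5469, 3047 and 2724 UMIs against 2371, 2213 and 2019), and after thinning to 1000 UMIs the shares were 27.1%, 31.2% and 12.4%. Cells without the 26 markers, 101 of 115, 148 of 165 and 189 of 214, had 358.1, 490.4 and 87.6 CPM, and 63.4%, 55.4% and 16.9% of them held a class II UMI. Kupffer markers were at 0.0395%, 0.339% and 0.195% of the Kupffer level. Of 10 such markers 2, 6 and 4 were seen, with Clec4f, Marco and Folr2 at 0 in all libraries. B cell markers were at 0.897%, 1.49% and 4.04% of the B cell level, with 8, 7 and 7 of 10 seen. Conventional dendritic markers were at 5.20%, 2.79% and 3.25% of their level in that class, with 8, 5 and 6 of 13 seen.

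**Figure D5:**
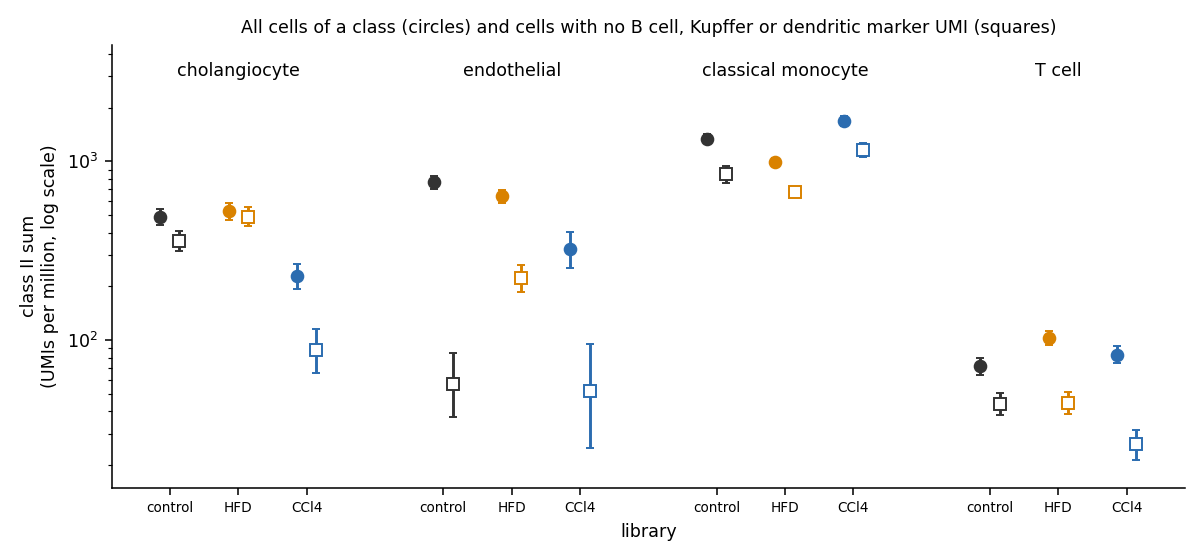
Class II sum (CPM, log axis, exact Poisson 95% intervals) for all cells of 4 classes (circles) and for the cells without any UMI of 26 B cell, Kupffer and dendritic cell markers (squares) in the 3 libraries. In endothelial cells the control value drops from 762.7 to 57.1 CPM, while in cholangiocytes it goes from 487.1 to 358.1 CPM.

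Between libraries, the cholangiocyte sum was 1.08 times the control on high-fat diet (0.93 to 1.26) and 0.469 times with CCl4. In cells without the 26 markers these ratios were 1.37 and 0.245, and as UMIs per cell, with no scaling, 0.589 and 0.219. H2-Aa had 85.7, 101.5 and 48.7 CPM, H2-Ab1 61.4, 90.1 and 35.4 CPM, and H2-Eb1 86.95, 129.3 and 54.5 CPM. Of these chains, H2-Eb1 was higher on high-fat diet by more than counting error (1.49 times, 1.06 to 2.09), while the intervals for H2-Aa (0.825 to 1.70) and H2-Ab1 (0.978 to 2.21) held 1. Cd74 had 253.2, 206.3 and 89.9 CPM, and its high-fat diet ratio of 0.815 also had an interval that held 1 (0.647 to 1.02). At least 2-fold lower were 0 of 4 members on high-fat diet (background 6.56%) and 1 of 4 with CCl4 (Cd74, background 14.3%). Scaled to genes low in hepatocytes, the high-fat diet ratio was 1.52 (1.30 to 1.76) and the CCl4 ratio 0.865 (0.713 to 1.05). On high-fat diet 4 of 9 members were then at least 2-fold higher (H2-Ab1, H2-Eb1, H2-DMb2 and Ciita, background 19.4%), and with CCl4 0 of 9 were lower (background 9.12%). With CCl4 2 of 9 were higher (H2-Ob and Ciita, background 26.3%), from 6 and 3 UMIs, and both intervals held 1. The calls of H2-DMb2 and Ciita each rested on 2 UMIs on high-fat diet against 1 in the control (interval 0.187 to 212), too few for a comparison.

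T cells gave the background for these comparisons. Their class II sum was 1.45 times the control on high-fat diet (1.26 to 1.66) and 1.16 times with CCl4 (1.00 to 1.35), and 0 of 2 members tested, H2-Aa and Cd74, were at least 2-fold lower in either library (backgrounds 15.2% and 24.6%). Scaled to genes low in hepatocytes, the sum was 2.71 times (2.36 to 3.11) and 2.75 times (2.37 to 3.20), and 4 of 7 members (H2-Aa, H2-Ab1, H2-Eb1 and Cd74) were at least 2-fold higher in each treated library, with 31.2% and 36.8% of all genes as background. Only 7.995%, 9.32% and 4.52% of T cells held any class II UMI, and the richest 10% of cells held all of them. Cells without the 26 markers had 44.0, 44.8 and 26.2 CPM.

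The other genes of the pathway, 36 in all, gave context for the members. As CPM in B cells, 8 of 30 tested were at least 2-fold lower and 1 higher on high-fat diet, where 16.5% of all genes were lower and 7.82% higher. With CCl4 9 of 30 were lower and 2 higher, near the 25.3% and 8.25% of all genes. T cells, the background class, had 5 lower and 2 higher of 26 on high-fat diet (15.2% and 9.33% of all genes). With CCl4 they had 9 lower and 2 higher of 25 (24.6% and 9.62%). Marchf1, the ligase that removes class II from the surface, was lower along with the members in B cells, at 118.8, 35.7 and 17.8 CPM, as was the costimulatory ligand Cd86 at 142.3, 49.8 and 22.5 CPM. Ctss, the cathepsin that cuts the invariant chain in presenting cells, had 197.5, 79.1 and 50.2 CPM in B cells and 2610, 1439 and 945.7 CPM in Kupffer cells. Class I genes did not follow in B cells, with B2m at 1423, 1490 and 1921 CPM and H2-K1 at 1394, 1687 and 1438 CPM. Both are also expressed by hepatocytes, whose RNA was in every class. Of the promoter complex, Nfya and Creb1 were at least 2-fold lower in B cells in both treated libraries, while Rfx5 had 17.6, 5.27 and 5.23 CPM and fell short of the minimum mean of 20 CPM.

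In the other classes the same list was counted as CPM beside the share of all genes. Kupffer cells had 6 of 29 lower on high-fat diet (13.6% of all genes) and 9 of 28 lower with CCl4 (19.1%), and 0 higher in both (11.9% and 15.3% of all genes). Conventional dendritic cells had 4 lower and 1 higher of 31 on high-fat diet (11.7% and 8.50% of all genes), and 6 lower and 1 higher of 30 with CCl4 (16.4% and 9.67%). Hepatocytes had 0 of 16 on high-fat diet, and 1 lower and 1 higher of 16 with CCl4, but their share of all genes was not computed. Classical monocytes had 2 lower of 30 on high-fat diet (5.40% of all genes), and 7 lower and 2 higher of 29 with CCl4 (12.3% and 9.95%). The pair that was higher was Ctsl, a cathepsin that hepatocytes also express, and Cd83, which stabilizes class II at the surface and had 56.2, 38.1 and 118.3 CPM. Nonclassical monocytes had 12 lower and 2 higher of 27 on high-fat diet (18.7% and 14.9% of all genes), against only 23 control cells. Plasmacytoid dendritic cells had 5 of 26 lower on high-fat diet (15.8%) and 8 of 26 with CCl4 (22.3%), and 0 higher in both (11.1% and 10.2% of all genes). Endothelial cells had 3 of 26 lower on high-fat diet (8.64%) and 4 of 26 with CCl4 (17.5%), and 0 higher in both (8.17% and 10.1% of all genes). Cholangiocytes had 2 lower and 1 higher of 25 on high-fat diet (6.56% and 6.15% of all genes), and 3 lower and 1 higher of 25 with CCl4 (14.3% and 7.62%). Irf1, an interferon response factor, had 350.3, 266.9 and 204.9 CPM in cholangiocytes.

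The genes whose pattern was most like the class II sum were found by Pearson correlation of log2(CPM + 5) over 48 points, each a cell class in a library with at least 20 cells, among 6185 genes. The points of a library share its depth and its hepatocyte RNA, so the values are descriptions. Outside the members the 5 leading genes were Cd83 (0.866), Ctss (0.828), Plekhm3 (0.810), Plekho1 (0.808) and Wdfy4 (0.802). Of these 5, 4 were also among the 5 leading genes by Spearman correlation. Among the members Cd74 reached 0.992, but it is itself a large part of the sum. Of members outside the sum, H2-DMa reached 0.891 and H2-DMb1 0.886, whereas H2-Ob, the B cell member, reached 0.659. Cd83, the gene most like the sum, had 337.5, 110.7 and 89.9 CPM in B cells and only 3.84, 1.64 and 2.95 CPM in cholangiocytes.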

How the data were processed

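The authors deposited raw counts (UMIs per gene and barcode) with no normalization, made with Cell Ranger 7.2.0 per the file headers. The study's methods name alignment to mm10, while the submitters' processing notes name GRCm39, so gene positions are from GENCODE M21 on GRCm38, which held 52081 of the 55357 listed identifiers. How barcodes were called as cells is not given in the sources used here.

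A barcode was kept with 500 or more UMIs, 200 or more genes and a mitochondrial share of at most 30%, which 39 barcodes exceeded. Scrublet marked 6 doublets, too few to have worked, so the 8% highest scores per library were left out as an alternative. The remaining 36945 cells were clustered with scanpy 1.11.5 and leidenalg 0.10.2 (2000 variable genes, 30 components, 15 neighbours) after 12 class II genes had been set aside. Resolution 2.0 is reported and 1.0 is the alternative, the reverse of the plan, because conventional dendritic cells formed no cluster at 1.0. A class other than hepatocytes named a cluster with at least 3 of its markers among the 10 leading genes, or else with more of its list raised, as a share, than any other class. A marker was raised if seen in at least 10% of cells at 1.5 times the rest. A cluster was named hepatocyte where no other class had 3 markers raised and most hepatocyte markers were widely seen in its cells. The 13 unnamed clusters (3372 cells) were mixed, weak or led by predicted genes.

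UMIs were summed per class and library. Since each condition was 1 library, no test was made. A member was called at a ratio of CPM + 5 of at least 2 or at most 0.5 and a mean of at least 20 CPM, in classes of at least 20 cells per library. A count of 0 allows up to 3 counts. Genes low in hepatocytes had less than 0.1 of the mean level of the compared classes there in every library. Intervals, calls and thinning were tested on simulated data. Python 3.11.15, numpy 2.4.6, scipy 1.17.1, pandas 2.3.3 and matplotlib 3.10.9 were used.

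The members and lists were chosen with earlier results of these data known. Every member is named, and other genes are named from the pathway list or as the 5 most like the class II sum. Alternatives covered filters, doublets, clustering, a marker gate, scaling, added constants and thinning. Chosen after seeing the data were the scaling to genes low in hepatocytes, taking hepatocyte RNA off by its markers, and leaving out cells with markers of B cells, Kupffer cells or dendritic cells.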

Additional observations from a re-analysis of the deposited data

Results flagged for a closer look

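In T cells the class II sum on high-fat diet was 1.445 times the control, while 7 other classes were lower, and this difference in direction was not tested. H2-Eb1 was 2.20 times the control there (1.57 to 3.12), and Kupffer markers in T cells were at 0.0714% of the Kupffer level in the control and 0.465% on high-fat diet. In classical monocytes the sum with CCl4 was 1.265 times the control, while 6 other classes were lower, which was likewise not tested.

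Some clusters that received no name held class II RNA above T cells of their library by more than counting error, while others, such as cluster 6 with 38.2 CPM in 622 control cells, did not. Cluster 10, with markers of both B cells and T cells, had class II sums of 6413 CPM in the control, 4521 CPM on high-fat diet and 3154 CPM with CCl4, from 101, 43 and 96 cells. Its B cell marker level was 2648, 1841 and 1473 CPM. Cluster 20, with neutrophil and T cell markers and 126 control cells, had 2438 CPM, and its B cell marker level was 936.3 CPM. Cluster 1, a control cluster of 529 cells with some T cell markers, had 107.7 CPM, and cluster 21, of 340 control cells with weak neutrophil markers, had 158.3 CPM. Cluster 36, led by predicted genes, had 126.9 CPM in 668 CCl4 cells. Cluster 50, with weak Kupffer markers, had 185.8 CPM in 185 high-fat diet cells, whose hepatocyte marker level was 129899 CPM.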

How the results depend on the processing

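No paired analysis was possible because each condition was 1 library, and for the same reason no library could be left out. Values are the class II sum over the control, with the high-fat diet first where both are given, and the cause of each change was not tested unless the alternative itself gives it. Scaling to genes low in hepatocytes gave 1.084 and 1.087 in B cells, 1.167 (high-fat diet) in conventional dendritic cells, 1.165 and 1.104 in plasmacytoid dendritic cells, 1.094 (high-fat diet) in Kupffer cells, 1.158 and 2.219 in classical monocytes, 1.335 and 0.7971 in endothelial cells and 0.865 (CCl4) in cholangiocytes. Taking hepatocyte RNA off by its markers gave 1.167 and 1.73 in B cells, 1.252 and 1.141 in conventional dendritic cells, 1.148 and 1.384 in plasmacytoid dendritic cells, 1.2 (high-fat diet) in Kupffer cells, 1.153 and 2.642 in classical monocytes, 1.323 and 0.8744 in endothelial cells and 0.9039 (CCl4) in cholangiocytes. Without cells holding markers of B cells, Kupffer cells or dendritic cells, endothelial cells had 3.877 and 0.9067. UMIs per cell gave 0.4787 and 0.3334 in conventional dendritic cells, 0.4041 and 0.3237 in plasmacytoid dendritic cells, 0.4294 and 0.2952 in Kupffer cells, 0.7365 (CCl4) in classical monocytes and 0.589 (high-fat diet) in cholangiocytes. Cells with at least 2000 UMIs gave 0.5811 (high-fat diet) in B cells, 0.2773 and 0.2562 in plasmacytoid dendritic cells and 0.4996 (CCl4) in Kupffer cells. Leaving out the highest doublet scores gave 0.2499 and 0.2109 in plasmacytoid dendritic cells and 0.6619 (CCl4) in endothelial cells. A mitochondrial limit of 10% gave 0.2056 and 0.342 in Kupffer cells. Clustering each library alone gave 0.4889 (high-fat diet) in classical monocytes. The marker gate gave 1.043 (high-fat diet) in classical monocytes, 1.07 and 0.5567 in endothelial cells and 0.562 (CCl4) in cholangiocytes, whose sum with CCl4 was then 0.9516 times that of T cells. Scaling outside mitochondrial, ribosomal and the 20 most abundant genes gave 0.5242 (CCl4) in cholangiocytes. Members called lower over the classes numbered 13 of 55 (11.9% of all genes) and 22 of 48 (18.1%). They were 7 of 50 (11.5%) and 14 of 31 (18.2%) with libraries clustered alone, 11 of 31 (17.5%, CCl4) with the gate, and 5 of 77 (7.99%) and 4 of 69 (9.68%) scaled to genes low in hepatocytes. Of the ratios to the control under alternatives, 140 kept their direction and side of 2-fold, 17 within 2-fold crossed 1, 16 passed 2-fold, 10 fell short of it and 5 turned. Of the ratios to T cells 211 kept both, 6 fell short of 2-fold and 1 turned, and 34 values could not be had, because a class had too few cells, had no cluster or was itself made of the cells left out. Conventional dendritic cells gave no value in any library at resolution 1.0. They also gave none in the control with at least 2000 UMIs or without the highest doublet scores. With CCl4 they gave none with libraries clustered alone or under the gate. Depth limits Ciita, H2-Oa, H2-Ob and H2-DMb2 outside B cells and conventional dendritic cells.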

Other observations

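Among fibroblast or stellate cells of the high-fat diet library, class II RNA lay mostly in cells with a UMI of a mesothelial marker (Msln, Upk3b, Wt1 or Gpm6a, genes of the cells that line the liver surface). The class II sum was 1429 CPM (1293 to 1575) in 87 such cells, of which 65.5% held a class II UMI, and 271.9 CPM (195.1 to 368.8) in the 48 cells without, of which 18.8% did. Leaving out cells with B cell, Kupffer or dendritic markers gave 1212 CPM in 74 and 263 CPM in 27 cells. The control held only 10 and 13 such cells, with 157.7 and 340.4 CPM, and the CCl4 library only 7 and 8, too few to compare the split between libraries.

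Plasma cells, which derive from B cells and are known to shut down class II, had 1906, 1519 and 1857 CPM in control, high-fat diet and then CCl4 livers, from 26, 270 and 74 cells. In these cells Cd74 made up most of the class II sum, with 1317, 1037 and 1038 CPM. H2-Aa had 134.5, 104 and 239.3 CPM, H2-Ab1 245.7, 172.8 and 259.5 CPM, and H2-Eb1 208.7, 204.7 and 320.4 CPM. On high-fat diet Cd74 was seen in 90% of cells, H2-Aa in 19.3%, H2-Ab1 in 41.5% and H2-Eb1 in 37.8%. The 48 high-fat diet plasma cells without markers of B cells, Kupffer cells or dendritic cells had a sum of 1396 CPM, and 91.7% of them held a UMI of the sum. Natural killer cells had 61.4, 118.2 and 180.5 CPM, with B cell markers at 0.585%, 2.29% and 4.25% of the B cell level. Their summed levels of conventional dendritic markers were 95.4%, 82.4% and 52.9% of that class, but only 8, 5 and 7 of 13 markers were seen. Xcr1, Clec9a, Fscn1 and Ccl22 were at 0 in all libraries. Basophils or mast cells had 949.1, 126.4 and 450.9 CPM, but 1 cell held 210 of the 355 class II UMIs of the control, 80 of its 94 cells held none, and with CCl4 only 2 of 14 cells held any. Neutrophils had 202.1, 526.1 and 198.7 CPM, but on high-fat diet 1 cell held 161 of 472 class II UMIs and 289 of 343 cells held none.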
